A study of Drosophila melanogaster with 18 samples.

Results

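The effect of E93 RNAi on the pupal wing of Drosophila melanogaster was compared between 44 h and 24 h after puparium formation, gene by gene. The quantity described is an interaction: the log2 fold change of E93RNAi over control at 44 h minus the same fold change at 24 h. A positive interaction means that a gene was more strongly higher, or less strongly lower, in E93RNAi wings at 44 h than at 24 h. It used 12 of the 18 libraries of the study, 3 each of E93RNAi at 44 h, control at 44 h, E93RNAi at 24 h and control at 24 h. The study asked how much of the E93-dependent programme of the pupal wing runs through repression of br.

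The E93RNAi flies carried the driver rn-Gal4 and the transgene UAS-E93RNAi, and the control flies carried rn-Gal4 alone. All flies were kept at 25ºC, and each sample was polyA RNA from at least 40 dissected pupal wings. The driver rn-Gal4 follows the gene rotund, so the transgene acts where and when rotund is active, whereas the RNA came from all cells left in the dissected wing. The labels do not say that libraries came from separate crosses, so the p-values rest on the variation among the libraries alone, and that variation may be technical. The 6 remaining libraries, of flies with rn-Gal4, UAS-brRNAi and UAS-E93RNAi, enter as levels only.

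E93, the gene Eip93F, encodes an ecdysone-dependent transcription factor that specifies the adult in metamorphosing insects. The gene br encodes the Broad zinc finger factors, which mark the pupal stage and are repressed when adult differentiation starts. Between the stages compared, wing cells leave the cell cycle, grow an actin-based hair, and then secrete apical matrix and the layers of the adult cuticle under changing ecdysone titre.

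The 12 libraries held between 17627937 and 21874138 counts, and 1 count equalled 0.0457 to 0.0567 CPM, the count scaled to the library total. Levels are CPM after TMM scaling, which shifts the CPM of 1 count somewhat from that range, and 9460 genes were tested. Replicate 3 of E93RNAi at 24 h stood apart from the other libraries of its group. Its chi-square per degree of freedom over genes was 17.6 and 25.5 against replicates 1 and 2, where no other pair of libraries within a group exceeded 10.3. Its summed level of cytosolic ribosomal protein genes was 77709 CPM after TMM scaling, against 97028 and 99625 CPM in replicates 1 and 2. Counts of list members are therefore also given without it where they move by over 1.5 times. The 7 wing epithelium markers, such as vg and nub, were present in all groups, with summed levels of 2132 to 2245 CPM in E93RNAi and 2285 to 2570 CPM in control wings at 44 h, and 2725 to 3182 CPM in E93RNAi and 2487 to 2646 CPM in control wings at 24 h.

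The targeted transcript did not separate the genotypes at 24 h. Eip93F (FBgn0264490, chromosome 3R, 21949114 to 22014539) had 1188, 1202 and 1131 CPM in E93RNAi and 1298, 1267 and 1357 CPM in control wings at 44 h, and 2097, 1920 and 2325 CPM in E93RNAi and 2046, 2147 and 2132 CPM in control wings at 24 h. The libraries did not overlap at 44 h and overlapped at 24 h. The log2 fold change was -0.16 at 44 h, with an adjusted p of 0.0472 that passed the threshold in 6 of 20 alternative analyses (range 0.00391 to 0.605), and 0.00 at 24 h (adjusted p = 0.965). Its interaction of -0.16 ± 0.08 (SE) missed the threshold (adjusted p = 0.147). The RNA at this gene does not check the genotype label, and the libraries are called E93RNAi-labelled below.

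The gene br, which E93 is known to repress, was higher in E93RNAi-labelled wings at both times, and more so at 44 h. The feature taken as br (FBgn0000210) is not named by the annotation used. Its implied length of 8173 bases lies 1 base from that of a br transcript less the offset seen for most genes, and 2 of 213 unmatched features have a br transcript length. It had 50.3, 48.7 and 53.9 CPM in E93RNAi-labelled and 1.34, 2.49 and 1.35 CPM in control wings at 44 h, and 99.1, 85.2 and 108 CPM in E93RNAi-labelled and 12.9, 15.1 and 16.9 CPM in control wings at 24 h. Between 24 h and 44 h br dropped by 0.93 on the log2 scale in E93RNAi-labelled wings and dropped by 3.10 in control wings. The interaction was 2.16 ± 0.22 (adjusted p = 8.65e-07).

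The gene of the driver itself moved in the same way. The transcript of rn, which encodes the zinc finger factor Rotund, had 98.4, 98.0 and 97.4 CPM in E93RNAi-labelled and 54.4, 54.2 and 50.5 CPM in control wings at 44 h, and 133, 142 and 155 CPM in E93RNAi-labelled and 117, 122 and 122 CPM in control wings at 24 h. The genotypes did not overlap at either time, and the interaction was 0.63 ± 0.08 (adjusted p = 5.16e-06). Dcr-2, the dicer of the small interfering RNA pathway, also differed between the genotypes. It had 2653, 1968 and 2084 CPM in E93RNAi-labelled and 69.0, 63.9 and 59.6 CPM in control wings at 44 h, and 5456, 5391 and 6187 CPM in E93RNAi-labelled and 233, 223 and 266 CPM in control wings at 24 h. Its interaction was 0.56 ± 0.14 (adjusted p = 0.00396). The labels name no Dcr-2 transgene, and its part in the other results was not tested.

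**Figure D1:**
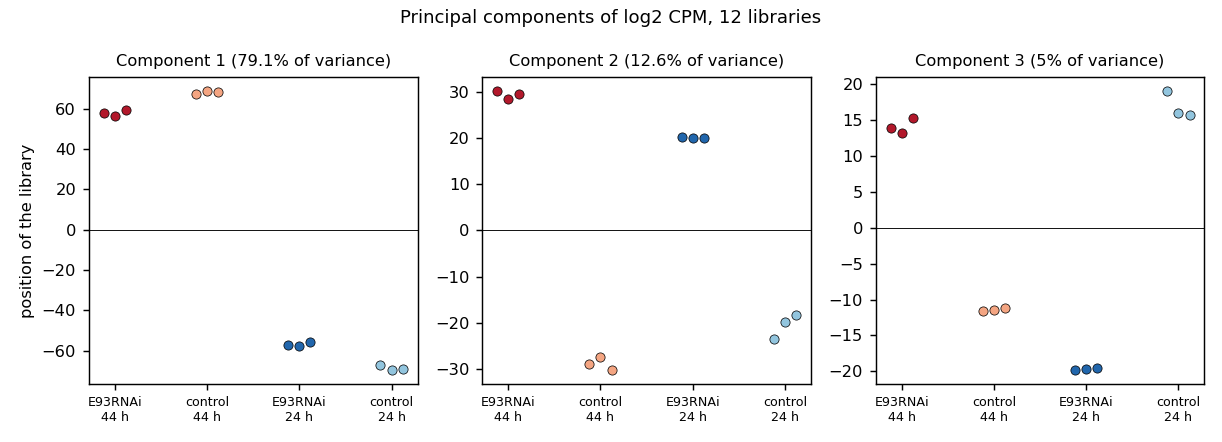
Position of each of the 12 libraries (points) on the first 3 principal components of log2 CPM, with the 4 groups along the horizontal axis and the unitless position on the vertical axis. Component 1 (79.1% of the variance) separates the times and component 2 (12.6%) the genotypes, whereas on component 3 (5%) E93RNAi-labelled wings lie on the positive side at 44 h and the negative side at 24 h, opposite to control wings at each time.

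On principal components 1 and 3 the genotypes lay in opposite order at the 2 times, so the interaction was not confined to 1 axis. On component 1, E93RNAi-labelled libraries lay at 56.13 to 59.27 and control libraries at 67.35 to 68.7 at 44 h. At 24 h E93RNAi-labelled libraries lay at -57.9 to -55.92 and control libraries at -69.55 to -67.39 on it. On principal component 3, with 5% of the variance, E93RNAi-labelled libraries lay at 13.2 to 15.33 and control libraries at -11.66 to -11.14 at 44 h, whereas E93RNAi-labelled libraries lay at -19.79 to -19.53 and control libraries at 15.66 to 19.05 at 24 h. In the edgeR quasi-likelihood test, 3780 of 9460 genes (40.0%) passed an adjusted p of 0.05 for the interaction. Of these, 1850 (19.6% of the genes tested) were positive and 1930 (20.4%) negative. An interaction of at least 2-fold was found for 987 genes (10.4%), of which 596 (6.30%) were positive and 391 (4.13%) negative. Scaling by library totals alone shifted the median interaction of all genes to 0.112, against 0.008 with TMM, and changed the positive share of the calls to 65.2%, against 48.9%.

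The form of the difference varied. At 44 h, 3877 genes (41.0%) differed between the genotypes, 1993 higher (21.1%) and 1884 lower (19.9%) in E93RNAi-labelled wings. At 24 h, 4387 genes (46.4%) differed, 2303 higher (24.3%) and 2084 lower (22.0%). Among the genes with an interaction, 1082 (28.6%) differed at 44 h and missed the threshold at 24 h, and 1329 (35.2%) did the converse. A further 314 (8.3%) differed in the same direction at both times and more at 44 h, 161 (4.3%) in the same direction and more at 24 h, and 148 (3.9%) at neither time. The effect was reversed for 746 genes, 7.89% of those tested.

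Of the reversed genes, 310 (3.28% of those tested) were higher at 44 h and lower at 24 h in E93RNAi-labelled wings, with median log2 fold changes of 0.60 and -0.37. The other 436 (4.61%) were lower at 44 h and higher at 24 h, with medians of -0.39 and 0.35. The libraries of the genotypes did not overlap at either time for 292 of the 310 and 394 of the 436. These genes were called from the same libraries, so the lack of overlap follows largely from the calls and is no separate support. Only 69 reversed genes had at least 2-fold differences at both times, 26 of the first kind and 43 of the second. The others fell short of a 2-fold difference at 1 time or both. Under scaling by library totals alone, the genes higher at 44 h and lower at 24 h numbered 531.

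**Figure D2:**
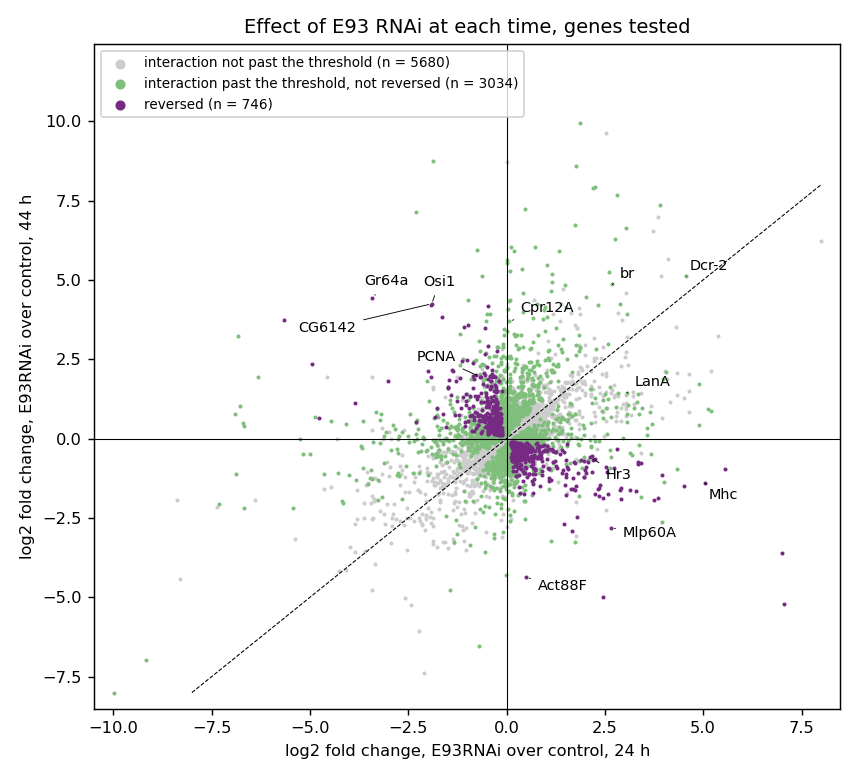
Each point is 1 of 9460 genes, with the log2 fold change of E93RNAi over control at 24 h on the horizontal axis and at 44 h on the vertical axis. Green points passed the interaction threshold without reversal, the 746 purple points were reversed and lie in the upper left and lower right quadrants, and the dashed line marks equal effects at both times.

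Across all genes tested, the fold changes at 44 h and 24 h had a Pearson correlation of 0.32 and a Spearman correlation of 0.20, given as a description over genes, which are not independent.

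Genes of DNA replication and of mitosis had the largest shares of positive interactions among the 32 gene lists examined. The counts of each list are read against the shares of all genes tested, which were 19.6% positive and 20.4% negative for the interaction, 21.1% higher and 19.9% lower in E93RNAi-labelled wings at 44 h, and 24.3% higher and 22% lower at 24 h. Of 40 replication genes tested, 31 (77.5%) had a positive interaction and 1, the helicase subunit gene dpa (-0.83), a negative one. The median interaction of the list was 0.74, against 0.008 over all genes. In E93RNAi-labelled wings 26 of the 40 were higher at 44 h and 1 lower, and at 24 h 2 were higher and 26 lower. The effect was reversed, higher at 44 h and lower at 24 h, for 16 of the 40 (3.28% of all genes). Without replicate 3 of E93RNAi at 24 h, 31 were positive, 14 were reversed and 1 was higher at 24 h.

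PCNA encodes the sliding clamp of the replication fork (FBgn0005655, chromosome 2R, 20261754 to 20262883). It had 8.97, 7.04 and 7.32 CPM in E93RNAi-labelled and 1.90, 2.03 and 2.08 CPM in control wings at 44 h, and 132, 131 and 115 CPM in E93RNAi-labelled and 210, 194 and 200 CPM in control wings at 24 h. All E93RNAi-labelled libraries were above the control libraries at 44 h and all were below them at 24 h. Between 24 h and 44 h PCNA fell by 4.02 on the log2 scale in E93RNAi-labelled wings and fell by 6.64 in control wings. The interaction was 2.62 ± 0.16 (adjusted p = 9.88e-10).

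The replicative helicase subunit gene Mcm7 (chromosome 3L, 8891596 to 8894310) had 9.03, 7.95 and 8.26 CPM in E93RNAi-labelled and 2.46, 2.49 and 3.26 CPM in control wings at 44 h, and 89.8, 88.8 and 89.6 CPM in E93RNAi-labelled and 117, 116 and 121 CPM in control wings at 24 h. Again the libraries did not overlap at either time and the direction reversed, with an interaction of 2.02 ± 0.12 (adjusted p = 7.76e-10). RnrL, the large subunit of ribonucleotide reductase, which makes deoxynucleotides, was higher at 44 h (log2 fold change 1.12) and lower at 24 h (log2 fold change -0.24), an interaction of 1.36 ± 0.09 (adjusted p = 6.98e-09).

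Of 48 mitosis and cytokinesis genes tested, 37 (77.1%) had a positive and 6 (12.5%) a negative interaction, with a median of 0.56. At 44 h 31 were higher and 5 lower in E93RNAi-labelled wings, and at 24 h 6 were higher and 24 lower. Reversal was upward at 44 h for 18 and downward for 3. Without replicate 3 of E93RNAi at 24 h, 3 were higher and 30 lower at 24 h, 38 interactions were positive, and the reversed genes numbered 22 and 2. Incenp, of the chromosomal passenger complex that corrects spindle attachment (chromosome 2R, 7278467 to 7281795), had 8.35, 7.52 and 7.73 CPM in E93RNAi-labelled and 1.79, 2.23 and 2.08 CPM in control wings at 44 h, and 138, 130 and 139 CPM in E93RNAi-labelled and 173, 176 and 176 CPM in control wings at 24 h. Its interaction was 2.30 ± 0.12 (adjusted p = 1.29e-10), with no overlap of the genotypes at either time.

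The mitotic kinase gene polo was higher at 44 h (log2 fold change 1.24) and lower at 24 h (log2 fold change -0.26), with an interaction of 1.5 ± 0.09 (adjusted p = 8.22e-10). Klp61F, a kinesin that slides spindle microtubules apart, was higher by 1.89 at 44 h, whereas its log2 fold change of -0.09 at 24 h missed the threshold (adjusted p = 0.118), and its interaction was 1.97 ± 0.11 (adjusted p = 3.54e-10). At 44 h these genes stood at a small part of their 24 h levels in both genotypes, so that the higher values of E93RNAi-labelled wings at 44 h remained far below those of either genotype at 24 h. In bulk wings, more cells expressing a gene and more RNA per cell cannot be told apart.

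**Figure D3:**
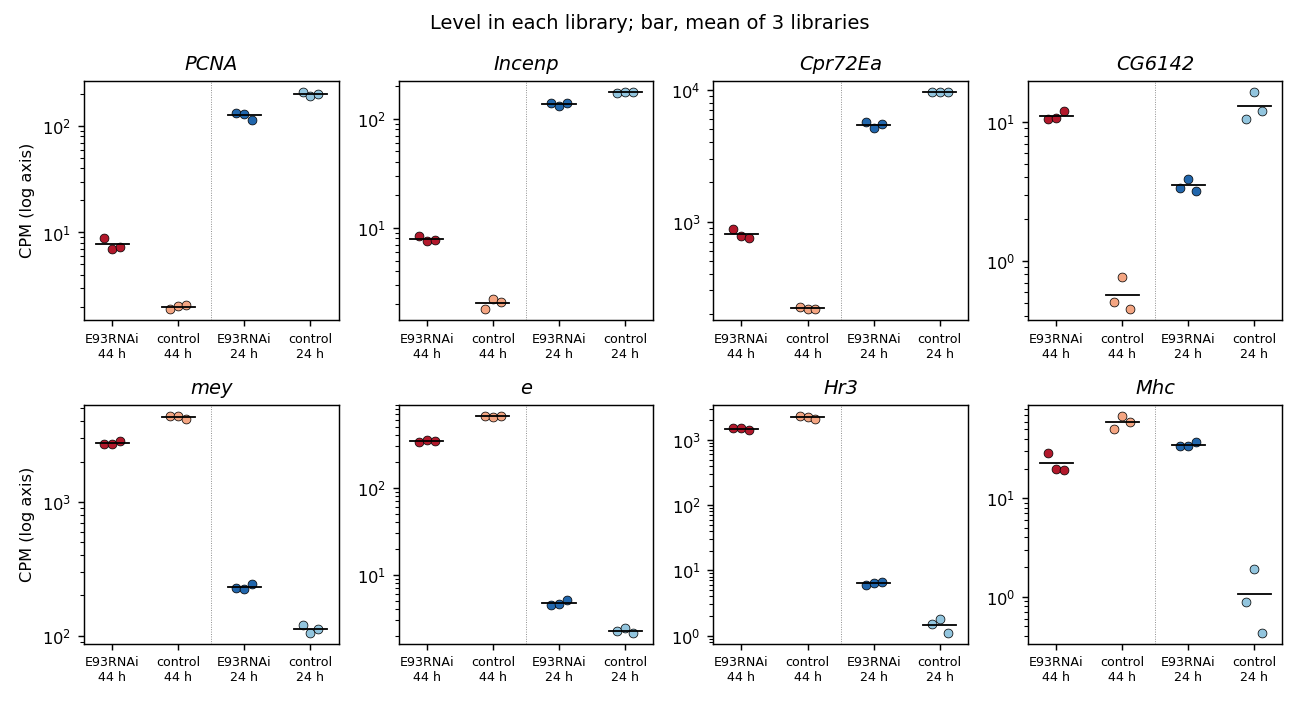
CPM (log axis) of 8 genes in each library (points), with the group mean as a bar, for E93RNAi and control at 44 h and then at 24 h. In the upper row E93RNAi-labelled libraries lie above control at 44 h and below it at 24 h, and in the lower row they lie below control at 44 h and above it at 24 h, with no overlap in any panel. All 8 genes were called reversed on these same libraries, so the separation is no separate support.

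Cuticle protein genes had positive interactions more often than all genes, and negative ones about as often. The Cpr family encodes chitin-binding proteins of the cuticle. Of 93 members, 46 passed the filter on low counts, so that no count below is one over the whole family. Of the 46, 21 (45.7%) had a positive and 9 (19.6%) a negative interaction, against 19.6% and 20.4% of all genes, and the median was 0.68. At 44 h 27 were higher and 6 lower, whereas at 24 h 14 were higher and 14 lower. Reversal was found for 7 that were higher at 44 h and 2 that were lower, and without replicate 3 of E93RNAi at 24 h 1 was reversed downward.

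Cpr72Ea (chromosome 3L, 16362603 to 16363750) had 876, 771 and 756 CPM in E93RNAi-labelled and 224, 216 and 218 CPM in control wings at 44 h, and 5650, 5128 and 5500 CPM in E93RNAi-labelled and 9625, 9581 and 9646 CPM in control wings at 24 h. The genotypes were apart at both times, in opposite directions, with an interaction of 2.69 ± 0.08 (adjusted p = 2.81e-13). The neighbouring gene Cpr72Eb (chromosome 3L, 16364899 to 16365707) had 25.8, 26.6 and 24.3 CPM in E93RNAi-labelled and 4.76, 5.69 and 4.27 CPM in control wings at 44 h, and 119, 119 and 121 CPM in E93RNAi-labelled and 218, 219 and 209 CPM in control wings at 24 h. It was reversed in the same way, with an interaction of 3.23 ± 0.10 (adjusted p = 2.81e-13). Cpr12A (chromosome X, 13543643 to 13544907) had 99.2, 102 and 97.1 CPM in E93RNAi-labelled and 7.67, 7.67 and 7.76 CPM in control wings at 44 h, and 436, 364 and 429 CPM in E93RNAi-labelled and 378, 401 and 398 CPM in control wings at 24 h. Here the genotypes overlapped at 24 h and were apart at 44 h, and the interaction was 3.63 ± 0.10 (adjusted p = 1.58e-13).

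The Osiris family, transmembrane proteins expressed in cuticle-secreting cells, had 17 of 22 members tested. Of these, 8 (47.1%) had a positive interaction and 2 (11.8%) a negative one, Osi8 (-2.15) and Osi17 (-0.77), both named because the count was small. Without replicate 3 of E93RNAi at 24 h, Osi17 lost its call (-0.67, adjusted p = 0.0969) and 9 members were positive. At 44 h 13 were higher and 2 lower, and at 24 h 5 were higher and 2 lower. Osi7 had 1504, 1168 and 1772 CPM in E93RNAi-labelled and 289, 328 and 263 CPM in control wings at 44 h, and 2.58, 2.74 and 3.15 CPM in E93RNAi-labelled and 4.45, 4.20 and 4.05 CPM in control wings at 24 h. Its interaction was 2.92 ± 0.27 (adjusted p = 2.80e-07), from a difference at 44 h, since the log2 fold change of -0.58 at 24 h missed the threshold (adjusted p = 0.0674). Osi14 was higher at both times, by 4.16 at 44 h and 1.52 at 24 h on the log2 scale, with an interaction of 2.64 ± 0.18 (adjusted p = 6.87e-09). Osi1 had 45.5, 33.2 and 40.0 CPM in E93RNAi-labelled and 1.62, 2.23 and 2.47 CPM in control wings at 44 h, and 0.0938, 0.0871 and 0.141 CPM in E93RNAi-labelled and 0.576, 0.256 and 0.429 CPM in control wings at 24 h, so that its level at 24 h rests on a few counts per library. It was called reversed, lower at 24 h (adjusted p = 0.0178), with a fitted interaction of 6.13 ± 0.65 (adjusted p = 1.14e-06) whose size depends on those few counts.

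Of the other cuticle protein families, 10 of 32 members were tested, with 6 (60%) positive interactions and 1 negative, TwdlT (-1.02), and a median of 1.07. Vajk3, a cuticle protein of the Vajk family (chromosome 2L, 13944756 to 13947476), had 16, 14.6 and 14.6 CPM in E93RNAi-labelled and 1.57, 1.42 and 0.900 CPM in control wings at 44 h, and 1.97, 1.66 and 1.74 CPM in E93RNAi-labelled and 3.56, 3.58 and 4.10 CPM in control wings at 24 h. Its level went opposite ways with age in the genotypes, higher at 44 h than at 24 h by 3.07 (log2) in E93RNAi-labelled wings and lower in control wings (-1.52). The interaction was 4.59 ± 0.23 (adjusted p = 1.20e-10). TwdlE, a Tweedle cuticle protein, was higher at both times, by 3.13 at 44 h and 1.44 at 24 h (log2), with an interaction of 1.69 ± 0.08 (adjusted p = 4.70e-11).

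Chitin genes had 9 positive (32.1%) and 5 negative (17.9%) interactions among 28 tested, with a median of 0.16. Gasp encodes a chitin-binding protein of apical matrix. It had 343, 328 and 330 CPM in E93RNAi-labelled and 320, 313 and 303 CPM in control wings at 44 h, and 34.3, 34.4 and 37.7 CPM in E93RNAi-labelled and 112, 123 and 116 CPM in control wings at 24 h. It was lower at 24 h (log2 fold change -1.72), the fold change of 0.10 at 44 h missing the threshold (adjusted p = 0.110), and its interaction was 1.82 ± 0.07 (adjusted p = 5.70e-12). The chitin deacetylase gene serp was higher at 44 h (log2 fold change 1.32) and lower at 24 h (log2 fold change -0.40), an interaction of 1.72 ± 0.10 (adjusted p = 5.83e-10). Among the negative ones, obst-A, which encodes a chitin-binding organiser of the cuticle, was reversed the other way, lower at 44 h (log2 fold change -0.63) and higher at 24 h (log2 fold change 0.58) (interaction -1.22 ± 0.09, adjusted p = 1.42e-08).

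**Figure D4:**
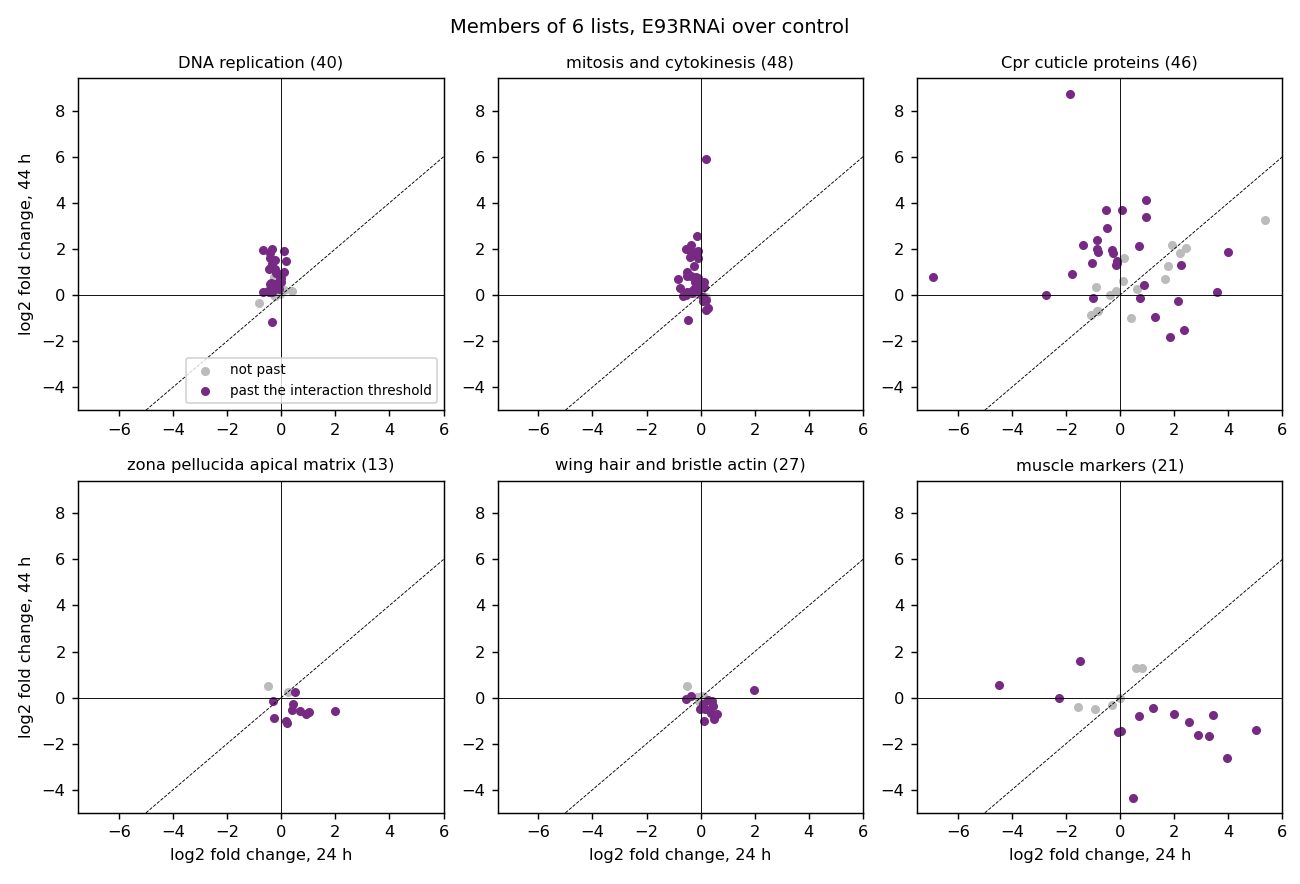
Members of 6 lists as points, with the log2 fold change of E93RNAi over control at 24 h (horizontal) and 44 h (vertical), and members past the interaction threshold in purple. Most replication and mitosis genes lie above the dashed line of equal effects, Cpr genes spread along both axes, and zona pellucida, hair actin and muscle genes lie mostly below it.

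Genes of the apical matrix and of the wing hair had the opposite course. The 13 zona pellucida domain genes encode filament-forming proteins that attach the cell apex to the cuticle and shape it. Of these, 10 (76.9%) had a negative and 1 a positive interaction, and the median was -0.95. The positive one, qsm (0.18), lost its call in 11 of 20 alternatives. DESeq2 gave 2 positive interactions in the list and the replicate block none. At 44 h 9 were lower and 3 higher in E93RNAi-labelled wings, and at 24 h 9 were higher and 2 lower. The effect was reversed for 6 of the 13, all lower at 44 h and higher at 24 h (4.61% of all genes).

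The zona pellucida gene mey (morpheyus, chromosome 3R, 31499235 to 31506992) had 2712, 2709 and 2863 CPM in E93RNAi-labelled and 4343, 4410 and 4188 CPM in control wings at 44 h, and 226, 225 and 245 CPM in E93RNAi-labelled and 121, 105 and 112 CPM in control wings at 24 h. E93RNAi-labelled libraries were all above control at 24 h and all below it at 44 h. Between the times mey was higher by 3.57 (log2) in E93RNAi-labelled wings and by 5.26 in control wings, and the interaction was -1.68 ± 0.08 (adjusted p = 5.53e-11). Its relative nyo (nyobe) had an interaction of -1.61 ± 0.08 (adjusted p = 1.15e-10), lower at 44 h (log2 fold change -0.70) and higher at 24 h (log2 fold change 0.91). For neo (neyo) the interaction was -1.18 ± 0.07 (adjusted p = 5.65e-10), with log2 fold changes of -1.02 at 44 h and 0.16 at 24 h. The matrix protein genes pio (papillote) and dpy (dumpy), whose products tether the wing epithelium to the overlying cuticle, were reversed too, with interactions of -0.71 ± 0.07 (adjusted p = 4.67e-07) and -0.95 ± 0.13 (adjusted p = 2.86e-05).

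Genes of hair and bristle actin numbered 27, of which 14 (51.9%) had a negative interaction and 2 (7.4%; 4 genes under library totals alone) a positive one, the profilin gene chic (0.46) and the cofilin gene tsr (0.49). The median was -0.36. At 44 h 12 were lower and 2 higher, at 24 h 11 were higher and 2 lower, and 6 were reversed. The villin-like bundling gene qua (chromosome 2L, 17486806 to 17497208) had 224, 227 and 241 CPM in E93RNAi-labelled and 454, 425 and 437 CPM in control wings at 44 h, and 34.1, 34.2 and 39.3 CPM in E93RNAi-labelled and 25.8, 25.4 and 25.0 CPM in control wings at 24 h. The genotypes were apart in opposite directions at the 2 times, with an interaction of -1.42 ± 0.08 (adjusted p = 4.50e-10).

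The bristle actin gene jv (javelin) was higher at both times but less so at 44 h, by 0.34 at 44 h and 1.98 at 24 h (log2), an interaction of -1.64 ± 0.09 (adjusted p = 5.19e-10). For mwh (multiple wing hairs), which limits hairs to one site per cell, the difference was at 44 h, where it was lower (log2 fold change -1.01). The fold change of 0.14 at 24 h missed the threshold (adjusted p = 0.0992), and the interaction was -1.15 ± 0.09 (adjusted p = 1.76e-08). Among 18 planar polarity genes tested, which orient the hairs, 7 (38.9%, against 20.4% of all genes) had a negative interaction. The 1 positive one (5.6%, against 19.6%) was the myosin light chain gene sqh (0.28). The median of the list was -0.15. The counts were 5 negative and 3 positive under library totals alone, and 6 and 3 without replicate 3 of E93RNAi at 24 h. The Wingless receptor gene fz2 (-0.74 ± 0.09, adjusted p = 5.87e-06), the hair-site gene in (inturned, -0.57 ± 0.07, adjusted p = 8.32e-06) and the Golgi kinase gene fj (-0.47 ± 0.07, adjusted p = 6.03e-05) were the ones with the smallest p.

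Pigmentation and tanning genes had 5 positive and 5 negative interactions among 20 tested, 25% each way, which is near the 19.6% and 20.4% of all genes, with a median of -0.41. The negative ones were e, Pu, t, yellow-d and yellow-d2. The gene e (ebony) encodes the enzyme that joins dopamine to beta-alanine for tan cuticle (chromosome 3R, 21229839 to 21237177). It had 337, 358 and 347 CPM in E93RNAi-labelled and 668, 657 and 676 CPM in control wings at 44 h, and 4.55, 4.62 and 5.13 CPM in E93RNAi-labelled and 2.25, 2.46 and 2.15 CPM in control wings at 24 h. It was thus lower at 44 h and higher at 24 h with no overlap, and the interaction was -2.0 ± 0.11 (adjusted p = 4.55e-10).

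Pu (Punch), the GTP cyclohydrolase that starts pteridine and cofactor synthesis, had 49.7, 54.9 and 59.4 CPM in E93RNAi-labelled and 179, 178 and 185 CPM in control wings at 44 h, and 3.0, 2.88 and 3.11 CPM in E93RNAi-labelled and 2.09, 1.43 and 2.05 CPM in control wings at 24 h. Its interaction was -2.41 ± 0.17 (adjusted p = 1.15e-08), with a reversal of the same kind. The gene t (tan), whose enzyme reverses the ebony reaction, was higher at both times, by 1.23 at 44 h and 2.44 at 24 h, an interaction of -1.21 ± 0.09 (adjusted p = 1.39e-08). The 5 positive members were ple, Ddc, amd, yellow-e and yellow-h. Of the dopamine synthesis genes, tyrosine hydroxylase ple had an interaction of 0.98 ± 0.23 (adjusted p = 0.00231) with 28.6 CPM on average in E93RNAi-labelled and 3.96 CPM in control wings at 44 h, and 10.8 CPM in E93RNAi-labelled and 2.93 CPM in control wings at 24 h. Dopa decarboxylase Ddc had an interaction of 2.21 ± 0.48 (adjusted p = 0.00147) at levels under 2.5 CPM in every library. The members ple and Ddc were picked after their values were seen.

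Of 29 members of the ecdysone cascade tested, 6 (20.7%) had a positive and 9 (31%) a negative interaction, with a median of -0.13, and under library totals alone the counts were 9 and 8. At 44 h 9 were higher and 9 lower in E93RNAi-labelled wings, and at 24 h 14 were higher and 4 lower. The effect was reversed for 7, of which 6 were lower at 44 h, and without replicate 3 of E93RNAi at 24 h 6 were lower and 3 higher at 44 h. The nuclear receptor gene Hr3, induced at ecdysone peaks (chromosome 2R, 10203995 to 10237348), had 1524, 1528 and 1445 CPM in E93RNAi-labelled and 2366, 2255 and 2111 CPM in control wings at 44 h, and 6.0, 6.40 and 6.73 CPM in E93RNAi-labelled and 1.52, 1.79 and 1.10 CPM in control wings at 24 h. The E93RNAi-labelled libraries were the lower ones at 44 h and the higher ones at 24 h, and the interaction was -2.70 ± 0.15 (adjusted p = 4.19e-10).

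The ecdysone-induced nuclear receptor gene Eip78C had 805, 779 and 804 CPM in E93RNAi-labelled and 938, 962 and 914 CPM in control wings at 44 h, and 78.5, 78.4 and 88.5 CPM in E93RNAi-labelled and 46.7, 35.5 and 37.5 CPM in control wings at 24 h. It was reversed like Hr3, with an interaction of -1.27 ± 0.11 (adjusted p = 5.92e-08). Another receptor gene, Hr4, was higher at both times, by 0.28 at 44 h and 1.41 at 24 h, with an interaction of -1.13 ± 0.10 (adjusted p = 2.03e-07). Genes of ecdysteroid synthesis and turnover had 3 positive (37.5%) and 2 negative (25.0%) interactions among 8 tested, against 19.6% and 20.4% of all genes. Under library totals alone 1 was negative.

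**Figure D5:**
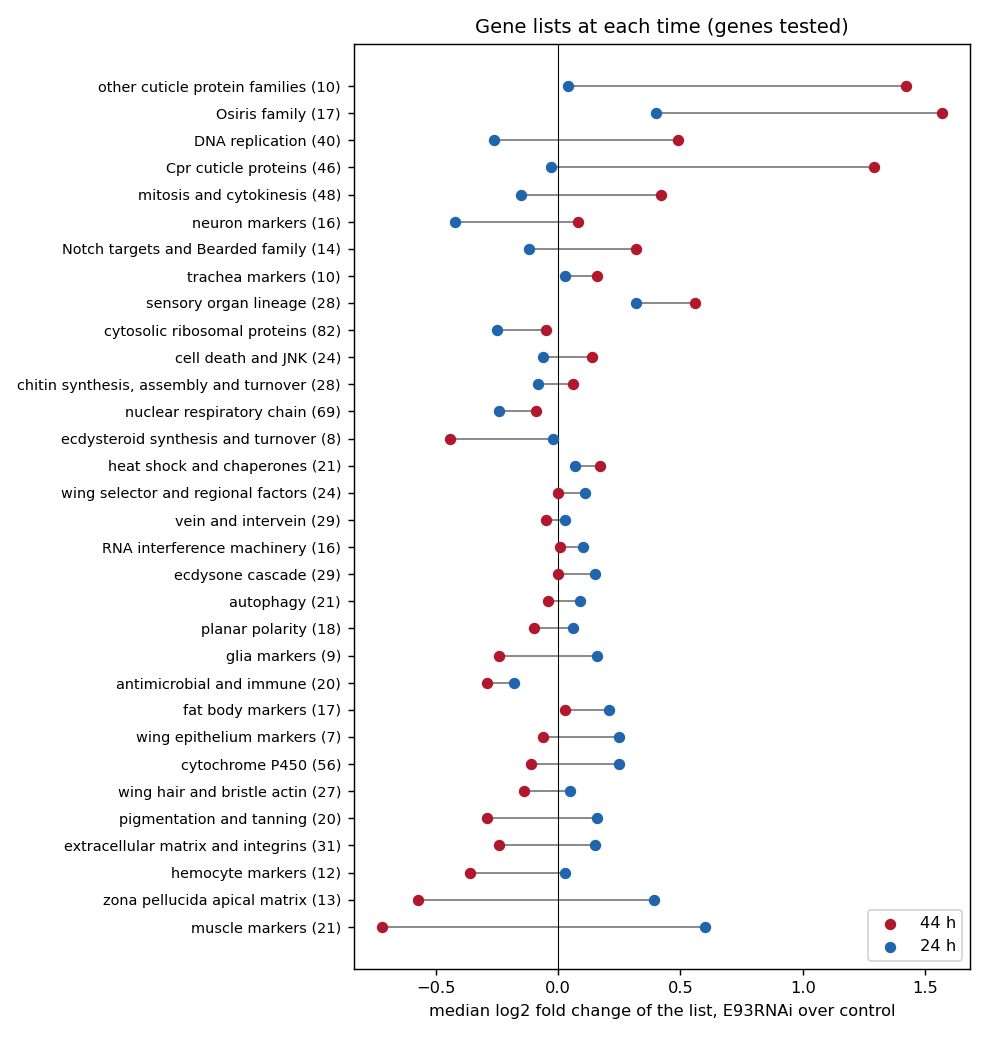
Median log2 fold change of E93RNAi over control at 44 h (red) and 24 h (blue) for the tested members of 32 lists, whose number stands in brackets, ordered by the median interaction. Replication and mitosis lists lie above 0 at 44 h and below it at 24 h, and muscle, zona pellucida and hair actin lists lie below 0 at 44 h and above it at 24 h.

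Muscle markers had the most negative median interaction of the 32 lists. Of 23 muscle markers, 21 were tested, of which 12 (57.1%) had a negative and 3 (14.3%) a positive interaction, with a median of -1.47. The positive ones were Prm (2.25) and the low genes Mf (3.07) and Mp20 (5.01). Mp20 had log2 fold changes of 0.55 at 44 h and -4.46 at 24 h, and Mf of 1.58 and -1.49. At 44 h 14 were lower and 2 higher, and at 24 h 9 were higher and 5 lower. The effect was reversed for 10, of which 9 were lower at 44 h and 1 higher, and for none upward without replicate 3 of E93RNAi at 24 h. The summed level of all 23 markers was 1047 to 1153 CPM in E93RNAi-labelled and 1463 to 1655 CPM in control wings at 44 h, and 986 to 1065 CPM in E93RNAi-labelled and 913 to 965 CPM in control wings at 24 h. In this sum the genes with high levels weigh most, and the muscle genes described below are a small part of it. Among the markers, TpnC47D was at 0 in E93RNAi-labelled wings at 24 h and fln in control wings at 24 h. What muscle left on the dissected wings adds to these values was not tested.

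The muscle myosin heavy chain gene Mhc (chromosome 2L, 16766566 to 16788766) had 28.7, 19.7 and 19.3 CPM in E93RNAi-labelled and 50.4, 68.9 and 58.8 CPM in control wings at 44 h, and 33.6, 33.7 and 37.4 CPM in E93RNAi-labelled and 0.890, 1.89 and 0.429 CPM in control wings at 24 h. Control wings at 44 h were the high group, control wings at 24 h the low group, and the E93RNAi-labelled libraries of both times lay between them. Mhc dropped by 0.63 (log2) between the times in E93RNAi-labelled wings and was higher by 5.80 at 44 h in control wings. The interaction was -6.44 ± 0.30 (adjusted p = 5.53e-11).

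The same pattern held for the myosin light chain gene Mlc1, with 6.28, 4.76 and 4.33 CPM in E93RNAi-labelled and 13.0, 16.5 and 18.2 CPM in control wings at 44 h, and 7.41, 8.02 and 6.54 CPM in E93RNAi-labelled and 0.890, 1.02 and 1.05 CPM in control wings at 24 h (interaction -4.52 ± 0.25, adjusted p = 4.42e-10). The troponin C gene TpnC73F (-4.94 ± 0.25, adjusted p = 1.43e-10) and the muscle LIM protein gene Mlp60A (-5.46 ± 0.36, adjusted p = 3.22e-09) were also lower at 44 h and higher at 24 h, with all libraries apart. The rule that named both used reversal and libraries that do not overlap, so these traits are no separate result. Act88F, a flight muscle actin whose reads may be shared with near-identical actin genes, had 3.20, 2.47 and 2.93 CPM in E93RNAi-labelled and 48.9, 63.8 and 64.0 CPM in control wings at 44 h, and 31.8, 30.8 and 27.8 CPM in E93RNAi-labelled and 21.2, 22 and 21.4 CPM in control wings at 24 h. Its difference was mostly at 44 h, and the interaction was -4.85 ± 0.16 (adjusted p = 7.98e-13).

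Other reversed genes that were lower at 44 h and higher at 24 h in E93RNAi-labelled wings included alphaTub85E, CG45076, Cyp4s3 and CG12003. The alpha-tubulin gene alphaTub85E (chromosome 3R, 9731221 to 9733250) had 14.0, 13.2 and 9.43 CPM in E93RNAi-labelled and 43.9, 41.5 and 43.6 CPM in control wings at 44 h, and 33.2, 34.9 and 35.1 CPM in E93RNAi-labelled and 8.22, 5.68 and 6.20 CPM in control wings at 24 h. The higher levels were those of control wings at 44 h and of E93RNAi-labelled wings at 24 h, and the interaction was -4.17 ± 0.16 (adjusted p = 6.64e-12). CG45076 had 1.68, 1.43 and 1.58 CPM in E93RNAi-labelled and 5.43, 5.48 and 6.86 CPM in control wings at 44 h, and 4.83, 4.92 and 4.57 CPM in E93RNAi-labelled and 0.419, 0.307 and 0.334 CPM in control wings at 24 h (interaction -5.66 ± 0.28, adjusted p = 8.69e-11). The cytochrome P450 gene Cyp4s3 (-3.35 ± 0.24, adjusted p = 1.05e-08) and CG12003 (-3.24 ± 0.31, adjusted p = 3.09e-07) were reversed alike at levels that were far higher at 44 h than at 24 h in both genotypes. The P450 family had 14 positive (25%) and 11 negative (19.6%) interactions among 56 tested, near the shares of all genes.

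Among reversed genes higher at 44 h, CG6142 (chromosome 3R, 26133154 to 26137148) had 10.6, 10.7 and 12.1 CPM in E93RNAi-labelled and 0.504, 0.762 and 0.450 CPM in control wings at 44 h, and 3.38, 3.92 and 3.20 CPM in E93RNAi-labelled and 10.6, 16.5 and 12 CPM in control wings at 24 h. The level was higher at 44 h than at 24 h by 1.66 (log2) in E93RNAi-labelled wings and lower in control wings (-4.48), an interaction of 6.14 ± 0.29 (adjusted p = 5.53e-11). CG16820 (chromosome 2L, 13246232 to 13250189) crossed over almost symmetrically. It had 32.8, 29.5 and 35.3 CPM in E93RNAi-labelled and 10.5, 9.50 and 11.5 CPM in control wings at 44 h, and 10.8, 11.0 and 12.9 CPM in E93RNAi-labelled and 33.8, 31.4 and 33.0 CPM in control wings at 24 h, with an interaction of 3.13 ± 0.13 (adjusted p = 9.04e-12). The sugar receptor gene Gr64a, which lies in a cluster of Gr64 genes whose reads may not be separated, had 6.11, 5.90 and 7.09 CPM in E93RNAi-labelled and 0.280, 0.254 and 0.337 CPM in control wings at 44 h, and 0, 0.0436 and 0.0471 CPM in E93RNAi-labelled and 0.366, 0.153 and 0.620 CPM in control wings at 24 h. It too was called reversed, lower at 24 h (adjusted p = 0.00142), with a fitted interaction of 7.84 ± 0.78 (adjusted p = 5.29e-07) that rests on at most 1 count per E93RNAi-labelled library at 24 h.

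Cell death and JNK genes had 11 positive (45.8%) and 4 negative (16.7%) interactions among 24 tested, against 19.6% and 20.4% of all genes, with a median of 0.17. Under library totals alone 2 were negative. Reversal was found for 4, which were higher at 44 h, and without replicate 3 of E93RNAi at 24 h for 5 that were higher and 1 that was lower. The death activator gene grim had 1.23, 0.619 and 0.879 CPM in E93RNAi-labelled and 0.168, 0.254 and 0.169 CPM in control wings at 44 h, which are only a few counts in control, and 3.75, 2.92 and 3.25 CPM in E93RNAi-labelled and 9.16, 8.70 and 7.72 CPM in control wings at 24 h. Its interaction was 3.50 ± 0.43 (adjusted p = 5.56e-06). The matrix metalloprotease gene Mmp1, a JNK target, was higher at 44 h (log2 fold change 1.00) and lower at 24 h (log2 fold change -0.44), an interaction of 1.43 ± 0.09 (adjusted p = 1.76e-09).

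Extracellular matrix and integrin genes, which hold the wing surfaces together, had mostly negative interactions. Of 31 tested, 21 (67.7%, against 20.4% of all genes) were negative and 6 (19.4%, against 19.6%) positive, with a median of -0.52. At 44 h 17 were lower and 8 higher in E93RNAi-labelled wings, and at 24 h 14 were higher and 5 lower. Downward reversal at 44 h was counted for 5 members, and for 1 without replicate 3 of E93RNAi at 24 h, so this count rests on that library. LanA, a laminin chain of the basement membrane (chromosome 3L, 6203831 to 6218022), was not reversed. It had 426, 380 and 400 CPM in E93RNAi-labelled and 154, 152 and 136 CPM in control wings at 44 h, and 706, 674 and 818 CPM in E93RNAi-labelled and 85.7, 85.5 and 91.4 CPM in control wings at 24 h. It was higher at both times and the difference was smaller at 44 h (interaction -1.62 ± 0.10, adjusted p = 1.21e-09). The matrix protease gene stl (stall) was likewise higher by 2.10 at 44 h and 4.05 at 24 h, an interaction of -1.95 ± 0.10 (adjusted p = 1.80e-10).

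Of 29 vein and intervein genes, 6 (20.7%) had a positive and 10 (34.5%) a negative interaction with a median of -0.04, and under library totals alone the counts were 7 and 6. The vein repressor gene net (chromosome 2L, 82421 to 87387) had 24.2, 21.0 and 22.8 CPM in E93RNAi-labelled and 5.99, 4.72 and 5.06 CPM in control wings at 44 h, and 86.9, 83.9 and 92.9 CPM in E93RNAi-labelled and 70.1, 68.2 and 62.6 CPM in control wings at 24 h. The excess was at both times and larger at 44 h, with an interaction of 1.72 ± 0.12 (adjusted p = 6.30e-09). The EGF receptor ligand gene vn (vein) was lower at 44 h (log2 fold change -0.96) and higher at 24 h (log2 fold change 0.37) (interaction -1.33 ± 0.11, adjusted p = 6.56e-08). The BMP antagonist gene sog was reversed in the same sense (-0.98 ± 0.08, adjusted p = 8.84e-08). Wing selector and regional factors had 5 positive and 5 negative interactions among 24 tested, 20.8% each way, near the shares of all genes, and 8 positive ones under library totals alone.

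Sensory organ genes had 11 positive (39.3%) and 9 negative (32.1%) interactions among 28 tested, with a median of 0.22. At 44 h 20 were higher (71.4%, against 21.1% of all genes) and 5 lower in E93RNAi-labelled wings. At 24 h 15 were higher (53.6%, against 24.3% of all genes) and 2 lower. The spindle orientation gene insc (inscuteable) had 27.3, 28.3 and 28.4 CPM in E93RNAi-labelled and 85.7, 80.1 and 75.1 CPM in control wings at 44 h, and 7.08, 6.58 and 9.41 CPM in E93RNAi-labelled and 5.97, 6.65 and 5.86 CPM in control wings at 24 h. The genotypes overlapped at 24 h and were apart at 44 h (interaction -1.84 ± 0.15, adjusted p = 3.89e-08). The chemosensory bristle selector gene Poxn was reversed the other way, higher at 44 h (log2 fold change 1.13) and lower at 24 h (log2 fold change -0.41) (interaction 1.53 ± 0.15, adjusted p = 5.18e-07). For nompA, which couples sensory dendrites to cuticle, the excess was 0.12 at 44 h and 0.87 at 24 h (interaction -0.74 ± 0.07, adjusted p = 1.61e-07). Among 14 Notch targets and Bearded genes, 6 interactions (42.9%) were positive and 3 (21.4%) negative. The Bearded family gene Tom (0.81 ± 0.08, adjusted p = 3.33e-07) and the repressor gene E(spl)m3-HLH (-0.64 ± 0.07, adjusted p = 8.61e-07) were reversed in opposite senses.

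Markers of cells other than wing epithelium also differed in their genotype effect between the times. Of 12 hemocyte markers tested, 7 (58.3%, against 20.4% of all genes) had a negative and none a positive interaction, with a median of -0.63. At 44 h 1 was higher and 7 lower (58.3%, against 19.9% of all genes) in E93RNAi-labelled wings, with a median log2 fold change of -0.36. At 24 h 5 were higher and 2 lower, with a median of 0.03. In the summed level of all 14 markers the genes with high levels weigh most. At 44 h it was 491 to 507 CPM in E93RNAi-labelled and 460 to 504 CPM in control wings. At 24 h it was 455 to 516 CPM in E93RNAi-labelled and 374 to 399 CPM in control wings. PPO2 was at 0 in control wings at 44 h and in E93RNAi-labelled wings at 24 h. The GATA factor gene srp (-0.97 ± 0.14, adjusted p = 2.54e-05) and the phagocytic receptor gene NimC2 (-0.82 ± 0.11, adjusted p = 1.32e-05) were examples. Of 17 fat body markers tested, 8 (47.1%) had a negative interaction and 2 (11.8%) a positive one, Lsp1gamma (0.38) and Lpin (0.51). Under library totals alone 5 were negative. At 44 h 7 (41.2%, against 21.1% of all genes) were higher and 7 (41.2%, against 19.9%) lower. At 24 h 8 (47.1%, against 24.3%) were higher and 3 (17.6%, against 22.0%) lower. The median log2 fold change was 0.03 at 44 h and 0.21 at 24 h. The lipid carrier gene apolpp had 45.3, 44.2 and 41.8 CPM in E93RNAi-labelled and 115, 105 and 117 CPM in control wings at 44 h, and 114, 113 and 120 CPM in E93RNAi-labelled and 123, 120 and 111 CPM in control wings at 24 h. Its interaction was -1.33 ± 0.08 (adjusted p = 6.71e-10), from 44 h, since the genotypes overlapped at 24 h.

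Of 16 neuron markers, 8 (50%) had a positive and 1, elav (-0.37), a negative interaction, with a median of 0.51. Without replicate 3 of E93RNAi at 24 h these counts were 10 and 0. At 44 h 4 were higher and 1 lower in E93RNAi-labelled wings, with a median log2 fold change of 0.08. At 24 h 3 were higher and 9 lower (56.2%, against 22.0% of all genes), with a median of -0.42. In their summed level the genes with high levels weigh most. At 44 h it was 504 to 573 CPM in E93RNAi-labelled and 381 to 410 CPM in control wings. At 24 h it was 328 to 404 CPM in E93RNAi-labelled and 279 to 326 CPM in control wings. The GABA receptor gene Rdl was reversed, higher at 44 h (log2 fold change 0.68) and lower at 24 h (log2 fold change -1.83) (interaction 2.5 ± 0.29, adjusted p = 3.06e-06). Glia markers had 3 positive and 3 negative interactions among 9 tested, and trachea markers, several of which are also cuticle or matrix genes, had 6 and 2 among 10. The part of these cell types in the other results was not tested.

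Some genes kept their direction at both times and differed in size. CG32373 (chromosome 3L, 7650548 to 7759123) had 146, 143 and 131 CPM in E93RNAi-labelled and 9.29, 9.45 and 10.6 CPM in control wings at 44 h, and 106, 108 and 106 CPM in E93RNAi-labelled and 53.6, 50.3 and 54.2 CPM in control wings at 24 h. It was higher at both times with no overlap, and the interaction was 2.83 ± 0.09 (adjusted p = 2.81e-13). The virus-induced gene vir-1 was higher by 2.35 at 44 h and 0.27 at 24 h (interaction 2.09 ± 0.07, adjusted p = 3.84e-13). Qsox2, a sulfhydryl oxidase that forms disulfide bonds, was higher by 3.49 at 44 h and 1.25 at 24 h (interaction 2.24 ± 0.09, adjusted p = 9.04e-12).

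Among genes lower at both times, CG31313 had 2.24, 2.43 and 2.28 CPM in E93RNAi-labelled and 4.53, 5.59 and 5.23 CPM in control wings at 44 h, and 3.85, 4.27 and 3.25 CPM in E93RNAi-labelled and 55.0, 73.0 and 55.9 CPM in control wings at 24 h. The deficit was larger at 24 h, so the interaction was positive at 2.87 ± 0.25 (adjusted p = 1.38e-07). The gene osp (outspread) showed the converse, with log2 fold changes of -1.01 at 44 h and -0.15 at 24 h (interaction -0.86 ± 0.08, adjusted p = 1.74e-07). Its libraries overlapped at 24 h, so that the direction at that time rests on a small difference.

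Heat shock and chaperone genes had 7 positive (33.3%) and 5 negative (23.8%) interactions among 21 tested, and 3 negative ones under library totals alone. The small heat shock gene Hsp23 had 1051, 1045 and 967 CPM in E93RNAi-labelled and 345, 339 and 381 CPM in control wings at 44 h, and 3951, 4260 and 3490 CPM in E93RNAi-labelled and 4040, 3850 and 4097 CPM in control wings at 24 h. The genotypes were apart at 44 h and overlapped at 24 h (interaction 1.56 ± 0.10, adjusted p = 1.35e-09). Immune genes had 4 positive and 4 negative interactions among 20 tested, 20% each way and near the shares of all genes. Autophagy genes had 2 positive and 6 negative (28.6%) among 21, and the negative ones numbered 3 under library totals alone and 4 with DESeq2. RNA interference genes had 5 positive (31.2%), Dcr-2 included, and 2 negative (12.5%) among 16, against 19.6% and 20.4% of all genes. Under library totals alone, and without replicate 3 of E93RNAi at 24 h, 1 was negative.

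Ribosomal protein and respiratory chain genes were mostly lower in E93RNAi-labelled wings at 24 h, and the number past the interaction threshold depended on the scaling. Of 82 cytosolic ribosomal protein genes tested, 53 were lower (64.6%, against 22.0% of all genes) and 1 higher in E93RNAi-labelled wings at 24 h. At 44 h 1 was lower and 1 higher. The interaction was positive for 9 (11.0%, below the 19.6% of all genes) and negative for RpLP0-like (-0.48). That gene, also the 1 higher at 24 h, had group means of 20.7 to 34.7 CPM, against 961 to 1365 CPM for RpS29. The median interaction of the list was 0.20. Without replicate 3 of E93RNAi at 24 h, whose summed ribosomal level was low, 44 of the list were lower at 24 h. The interaction was then positive for 18, and under library totals alone for 41. Of 69 nuclear respiratory chain genes, 43 (62.3%) were lower and 5 higher at 24 h, and 10 lower and 3 higher at 44 h. Their interaction was positive for 12 (17.4%, near the 19.6% of all genes) and negative for 1, COX7AL2. Without that library it was positive for 7 and negative for 3, and under library totals alone it was positive for 26. Without that library 32 were lower at 24 h.

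The E93RNAi+brRNAi libraries were scaled with all 18 libraries, and their levels are given beside those of the other groups on that scale, as mean ± SD with n = 3 and with no test. At 44 h br averaged 7.63 ± 1.18 CPM in E93RNAi+brRNAi, 50.2 ± 2.57 CPM in E93RNAi-labelled and 1.70 ± 0.645 CPM in control wings, and at 24 h it averaged 18 ± 4.09 CPM in E93RNAi+brRNAi, 95.1 ± 10.9 CPM in E93RNAi-labelled and 14.8 ± 1.96 CPM in control wings. Mhc averaged 76.6 ± 11.9 CPM in E93RNAi+brRNAi, 22.2 ± 5.30 CPM in E93RNAi-labelled and 58.3 ± 9.06 CPM in control wings at 44 h, and 0.742 ± 0.142 CPM in E93RNAi+brRNAi, 34.1 ± 2.08 CPM in E93RNAi-labelled and 1.05 ± 0.737 CPM in control wings at 24 h. For Mhc the E93RNAi+brRNAi values lay near the control values at both times.

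Cpr72Ea was near control at 44 h and near E93RNAi at 24 h. It averaged 246 ± 47.5 CPM in E93RNAi+brRNAi, 789 ± 66.1 CPM in E93RNAi-labelled and 216 ± 4.38 CPM in control wings at 44 h, and 5370 ± 469 CPM in E93RNAi+brRNAi, 5302 ± 241 CPM in E93RNAi-labelled and 9473 ± 31.8 CPM in control wings at 24 h. PCNA lay closer to the E93RNAi-labelled than to the control mean at both times, with 5.90 ± 0.834 CPM in E93RNAi+brRNAi, 7.66 ± 1.04 CPM in E93RNAi-labelled and 1.97 ± 0.0932 CPM in control wings at 44 h, and 120 ± 17.8 CPM in E93RNAi+brRNAi, 123 ± 9.69 CPM in E93RNAi-labelled and 198 ± 7.93 CPM in control wings at 24 h. Hr3 at 24 h was highest in E93RNAi+brRNAi, with 61.9 ± 21.2 CPM, against 6.24 ± 0.364 CPM in E93RNAi-labelled and 1.45 ± 0.345 CPM in control wings. Osi7 at 44 h had 8593 ± 993 CPM in E93RNAi+brRNAi, 1459 ± 298 CPM in E93RNAi-labelled and 288 ± 31.7 CPM in control wings. Eip93F at 44 h had 867 ± 55.9, 1156 ± 37.7 and 1285 ± 47.9 CPM in the same order. At 24 h Eip93F had 2368 ± 40.8, 2066 ± 193 and 2077 ± 51.7 CPM in that order. Only a part of the named genes is given here. Dcr-2 averaged 52.3 ± 8.32 CPM in E93RNAi+brRNAi, 2201 ± 366 CPM in E93RNAi-labelled and 63.0 ± 4.51 CPM in control wings at 44 h, so that its high level was not shared by all flies with the E93 transgene.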

How the data were processed

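Poly(A) RNA was sequenced from dissected pupal wings with a kit that keeps the strand, per the labels' protocols. The deposited tables give each gene a raw read count and an RPKM value, which the authors made from the count, a gene length and the library total. The RPKM values were used here only to find the length the authors assigned to each gene. The build dm6 is named in the submitters' processing notes. For the aligner, the counter and the use of strand, nothing is given in the sources used here, so overlapping genes and near-identical paralogs may share reads. Of 13731 identifiers with values, 13511 were matched to symbols and coordinates in the Ensembl annotation of BDGP6.

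Counts of the 12 libraries were fitted with edgeR 4.0.16 in R 4.3.3, with TMM scaling, filterByExpr, 1 mean per group, the quasi-likelihood F test and Benjamini-Hochberg adjustment at 0.05 over 9460 genes. The common biological coefficient of variation was 5.4%. The SE is the log2 value divided by the square root of F. A reversed gene passed the threshold for the interaction and at both times with opposite signs. The 2000 genes with the most variable log2 CPM, at a prior count of 2, gave the principal components. Alternatives used DESeq2 1.42.0, limma-voom (limma 3.58.1), other scalings and filters, all 18 libraries, a replicate block and each library left out in turn. The analysis was tested on simulated data. Same-numbered libraries had correlations of deviations from -0.123 to 0.104, so no effect shared by replicate number was seen. These values cannot tell whether same-numbered samples were handled together.

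The comparison and the 32 gene lists were chosen with earlier results of these data known. Named genes were Eip93F, br, rn and Dcr-2 and, among genes with at least 5 CPM in the highest group, the 8 reversed genes per direction with the largest smaller fold change, the 6 largest interactions per direction with libraries apart, up to 3 per list by smallest adjusted p, and 3 per direction among genes kept in 1 direction. The rule gave 115 genes, and not all are described. Members named because their count in a list was 5 or fewer were chosen after their values were seen. Intervals of folds include the spread between libraries, and a few counts limit genes under 1 CPM.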

Additional observations from a re-analysis of the deposited data

Results flagged for a closer look

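All results below were noted because the effect of E93 RNAi at 44 h differed from that at 24 h by a test of the difference itself, the edgeR interaction contrast with Benjamini-Hochberg adjustment. This held for 3780 genes, of which 746 had significant effects of opposite sign at the times. With 3 libraries a group, single libraries were not tested as outliers.

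Replication and mitosis genes had log2 interactions of 2.62 for PCNA, 2.02 for Mcm7, 1.36 for RnrL, 2.30 for Incenp, 1.5 for polo, 1.97 for Klp61F and -0.83 for dpa. The genes br, rn and Dcr-2 and the hormone receptor genes had log2 interactions of 2.16 for br, 0.63 for rn, 0.56 for Dcr-2, -2.70 for Hr3, -1.27 for Eip78C and -1.13 for Hr4. Cuticle protein and Osiris genes had log2 interactions of 2.69 for Cpr72Ea, 3.23 for Cpr72Eb, 3.63 for Cpr12A, 1.69 for TwdlE, 4.59 for Vajk3, -1.02 for TwdlT, 2.92 for Osi7, 2.64 for Osi14, 6.13 for Osi1, -2.15 for Osi8 and -0.77 for Osi17. Chitin and pigment genes had log2 interactions of 1.82 for Gasp, 1.72 for serp, -1.22 for obst-A, -2.0 for e, -2.41 for Pu, -1.21 for t, 2.21 for Ddc and 0.98 for ple. Apical matrix genes had log2 interactions of -1.68 for mey, -1.61 for nyo, -1.18 for neo, -0.71 for pio, -0.95 for dpy and 0.18 for qsm. Hair, actin and polarity genes had log2 interactions of -1.42 for qua, -1.64 for jv, -1.15 for mwh, 0.46 for chic, 0.49 for tsr, -0.74 for fz2, -0.57 for in, -0.47 for fj and 0.28 for sqh.

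Muscle genes had log2 interactions of -6.44 for Mhc, -4.52 for Mlc1, -4.94 for TpnC73F, -5.46 for Mlp60A, -4.85 for Act88F and 2.25 for Prm. Matrix and vein genes had log2 interactions of -1.62 for LanA, -1.95 for stl, 1.43 for Mmp1, 1.72 for net, -1.33 for vn and -0.98 for sog. Sensory, neuronal and Notch genes had log2 interactions of -1.84 for insc, -0.74 for nompA, 1.53 for Poxn, 0.81 for Tom, -0.64 for E(spl)m3-HLH, 2.5 for Rdl and -0.37 for elav. Hemocyte, fat body, stress, death and ribosomal genes had log2 interactions of -0.97 for srp, -0.82 for NimC2, -1.33 for apolpp, 1.56 for Hsp23, 3.50 for grim and -0.48 for RpLP0-like. The other genes had log2 interactions of 6.14 for CG6142, 3.13 for CG16820, 7.84 for Gr64a, -5.66 for CG45076, -4.17 for alphaTub85E, -3.35 for Cyp4s3, -3.24 for CG12003, 2.83 for CG32373, 2.09 for vir-1, 2.24 for Qsox2, 2.87 for CG31313 and -0.86 for osp.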

How the results depend on the processing

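Interaction calls numbered 3780 and ranged from 3302 to 4018 when each library was left out in turn, positive calls from 1592 to 1911 and negative calls from 1702 to 2107. Left out in turn, calls of at least 2-fold ranged from 953 to 999 and reversed genes from 625 to 800, those higher at 44 h from 255 to 348 and those lower at 44 h from 364 to 518. The genotype calls ranged from 3375 to 4301 at 44 h and from 3635 to 4473 at 24 h. The interaction calls of at least 2-fold fell to 463, against 987, with a minimum of 10 CPM in 3 libraries, a filter that tests fewer genes. Reversed genes higher at 44 h numbered 531, against 310, under library totals alone. The cause was not tested. The replicate block gave 3555 interaction calls, 967 of at least 2-fold and 684 reversed genes, and changed the interaction call of 1 of the 85 genes in the next paragraph, qsm. It used replicate numbers by which no shared effect was seen. Without replicate 3 of E93RNAi at 24 h, there were 3649 interaction calls and 772 reversed genes. DESeq2 gave 3631 calls and limma-voom 3782.

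Of 1694 values for 85 genes under the alternatives, 1671 kept direction and side of the threshold and none reversed. The call was lost in 22, 11 of them for qsm, 7 for elav and 4 for Osi17 (among these -0.77 with limma-voom, adjusted p = 0.0980). Eip93F gained a call without replicate 2 of E93RNAi at 24 h (-0.23, adjusted p = 0.0200). Genes under 1 CPM rest on few counts, and differences there are least certain.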
